A study of Drosophila melanogaster with 18 samples.

Results

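Genes of the insect cuticle and of chitin handling were examined in Drosophila melanogaster switched to banana, set against animals on cornmeal, the control diet. The 30 genes, of 4574 named on the array, were taken by symbol from probes with 1 gene: Cpr, Tweedle, Osiris, Vajk, Obstructor, peritrophin, mucin and chitinase names, with Gasp, ect, kkv and CG6933. They comprised 14 structural cuticle genes (10 Cpr and 4 Tweedle), 2 Osiris genes, 6 chitin-binding genes, 4 chitinase genes, the chitin synthase gene kkv, and ect, Vajk3 and Vajk4, which were kept apart as other cuticle-associated genes. Each had 1 probe. Of the other names sought, among them Pcp, Acp1, Gld, serp and verm, none was found on a probe with 1 gene.

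Total RNA of banana-switched animals and of cornmeal animals was hybridised together on 2-colour slides. There were 6 slides in 3 dye-flip pairs, each with 1 slide that carried banana RNA in channel 1 and 1 that carried cornmeal RNA in channel 1 (slides 2 and 3 in pair 1, 30 and 29 in pair 2, 28 and 25 in pair 3), and each slide held 3 sets of repeat spots. The labels give no strain, sex, age, stage, tissue or time on the diet, and do not tell whether each pair had its own culture. The spread behind each p-value is that among these pairs or slides and may be purely technical. In such RNA, fewer cells of a type and less RNA per cell cannot be told apart.

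Values are ratios of the 2 channels, taken as log2, so that 1 is a 2-fold difference. The base of the logarithm is not stated, and every fold difference given here rests on it. The labels do not say whether they run channel 1 over channel 2 or the reverse. Every slide was turned to the sign of slides with banana RNA in channel 1, so positive ratios stand for more RNA on banana in one case and on cornmeal in the other, and the higher diet is left unnamed. Levels themselves are unknown, and precision is limited by the number of arrays.

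The cuticle is an extracellular coat made by the epidermis and the tracheal tubes. Chitin synthase at the cell surface spins chitin, a polymer of N-acetylglucosamine, which is bound by structural proteins (Cpr proteins carry the Rebers-Riddiford chitin-binding domain, Tweedle proteins another domain) and by proteins with peritrophin-type chitin-binding domains. At each moult, under the control of ecdysone, chitinases digest the old cuticle while a new one is laid down, and different cuticle genes are switched on in succession. The gut is lined by a related chitin-containing sheet, the peritrophic matrix.

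Values on all 6 slides were found for 28 of the 30 genes, and 25 of them had all 18 spot values. Both turned slides of a pair shared their sign for 23, 24 and 20 of these 28 genes in pairs 1, 2 and 3, that is for 82.1%, 85.7% and 71.4%, against 56.6%, 55.4% and 42.3% of all 4722 rows tested. Across the 28 genes the turned slides of a pair correlated at Pearson's r of 0.788, 0.921 and 0.849, and across all rows at 0.215, 0.391 and 0.0861. The slides of a pair share their RNA, and genes are not independent replicates. Over all rows the lowest correlation between any 2 turned slides was -0.186, between slides 2 and 25. The median standard deviation of the repeat spots on a slide was 0.142 for the 30 genes and 0.161 for all probes.

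**Figure D1:**
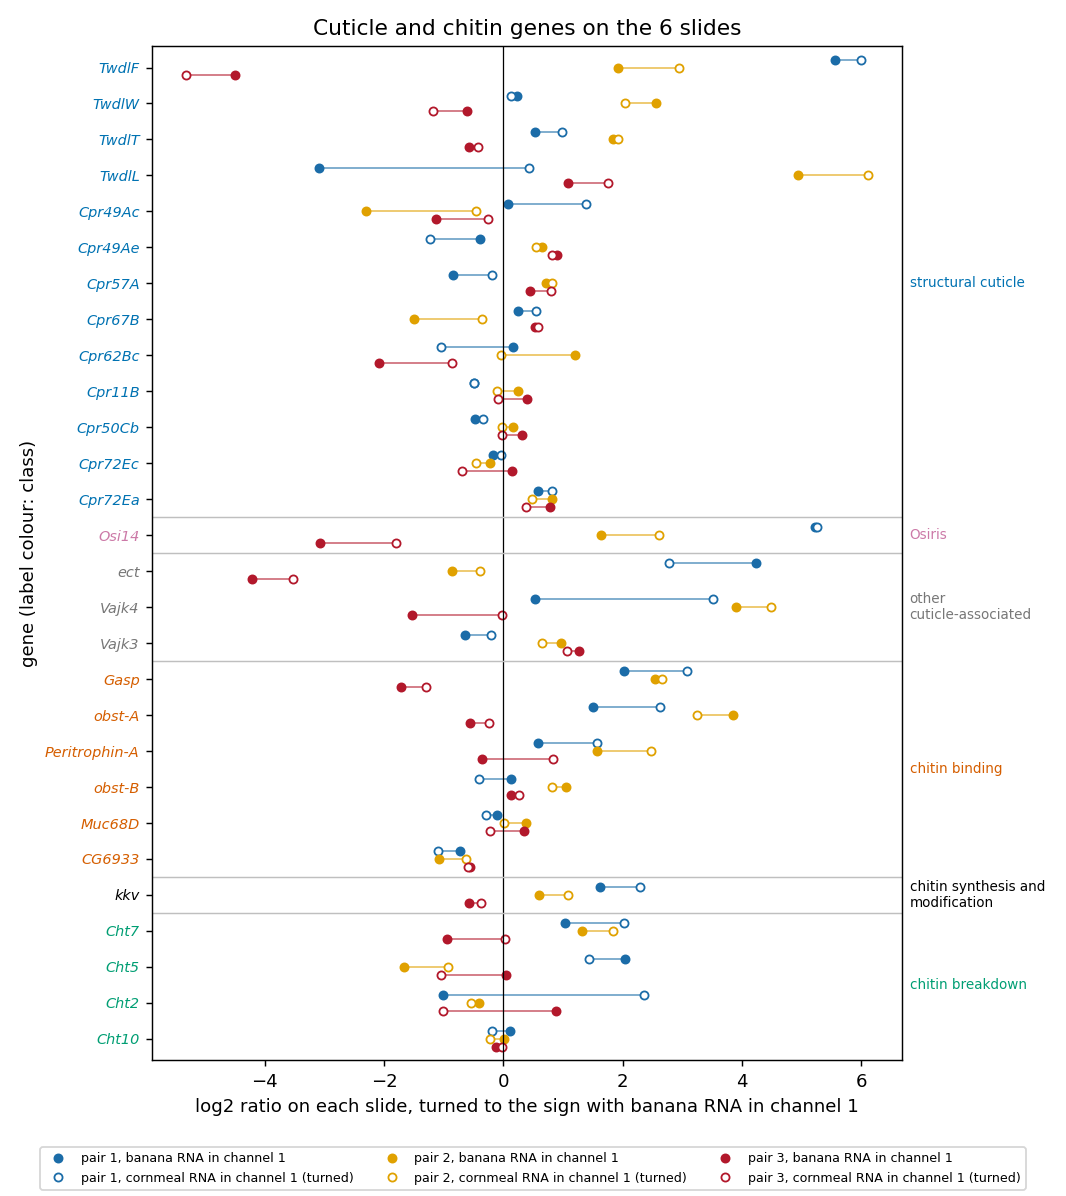
Log2 ratio (horizontal axis, turned to the sign with banana RNA in channel 1) of the 28 tested genes (rows, grouped by class) on each slide; colour gives the flip pair, filled points are slides with banana RNA in channel 1, open points slides with cornmeal RNA in channel 1, and a line joins the 2 slides of a pair. TwdlF, Osi14 and Gasp lie right of 0 in pairs 1 and 2 and left of 0 in pair 3, while all 6 slides of Cpr72Ea lie right of 0 and all 6 of CG6933 left of it.

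The first comparison asked how far the banana-cornmeal ratio of these genes varied over the 3 flip pairs, set against the noise between paired slides. The pairs differed for 3 of the 28 genes (limma F test, adjusted p under 0.05): the Tweedle gene TwdlF, the Osiris gene Osi14 and Gasp, which encodes a chitin-binding protein of tracheal and epidermal cuticle. All 3 were positive in pairs 1 and 2 and negative in pair 3. Over all rows 13 passed, or 0.275%. At an unadjusted p under 0.05 the difference was found for 19 of the 28 genes, against 9.3% of all rows. The median range between the highest and the lowest of the 3 pair ratios was 1.91 for the 28 genes and 0.42 for all rows. With only the probes that had all 18 values, 15 of 25 genes and 108 of 3742 rows passed, including the 3. Without pair 3 no gene passed (limma; 17 had an unadjusted p under 0.05), without pair 1 there were 6 among 17 rows and without pair 2 there were 8 among 84 rows.

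TwdlF encodes a cuticle protein of the Tweedle family, known from a mutant of another family member with a short, stout body. Its ratio was 5.56 and 5.99 on the slides of pair 1, 1.92 and 2.95 in pair 2, and -4.50 and -5.31 in pair 3. Both slides had one sign in each pair, the 3 pairs did not overlap, and pair 3 alone was negative. As fold differences, the pair means were 54.6-fold in pair 1, 5.41-fold in pair 2 and 30-fold, in the opposite direction, in pair 3. The ratio of pair 1 exceeded that of pair 3 by 10.68 ± 0.49 (SE, n = 2 slides a pair, limma adjusted p = 0.013), and that of pair 2 exceeded that of pair 3 by 7.34 ± 0.49 (limma adjusted p = 0.0327).

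Osi14 belongs to the Osiris genes, a clustered insect family expressed in epithelia that secrete cuticle. On the slides of pair 1 its ratio was 5.23 and 5.25, on those of pair 2 it was 1.63 and 2.62, and on those of pair 3 it was -3.07 and -1.79. Again the 3 pairs did not overlap. Pair 1 exceeded pair 3 by 7.67 ± 0.38 (SE, limma adjusted p = 0.013) and pair 2 exceeded pair 3 by 4.55 ± 0.38 (limma adjusted p = 0.045). The other gene of the family, Osi6, was not tested, because it had 8 of 18 spot values and none on 1 slide of pair 1 and 1 of pair 3. The 3 spots of Osi6 on slide 2 of pair 1 lay at 6.31, 3.62 and 4.12, those on slide 29 of pair 2 at 0.10 and 1.06, those on slide 30 at -1.11 and -1.22, and the 1 spot of pair 3, on slide 25, at -5.88.

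Gasp had ratios of 2.02 and 3.07 in pair 1, 2.54 and 2.65 in pair 2, and -1.72 and -1.29 in pair 3. Pairs 1 and 2 overlapped, and both slides of pair 3 lay below them. The difference was 4.05 ± 0.32 between pair 1 and pair 3 (SE, limma adjusted p = 0.0328) and 4.10 ± 0.32 between pair 2 and pair 3 (limma adjusted p = 0.045). For Gasp the adjusted p of the F test was 0.0462. It was 0.05, just above the threshold before rounding, when slides were centred as a whole, and 0.0534 when each probe was a row of its own. Gasp and Osi14 lie on chromosome arm 3R, with 13 protein-coding genes between Gasp and Osi6 and 10 between Osi6 and Osi14.

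Contrasts between single pairs added ect and TwdlW. Between pairs 1 and 3, 4 of the 28 genes passed (ect, Gasp, Osi14 and TwdlF), against 0.339% of all rows, and between pairs 2 and 3 another 4 calls were made (Gasp, Osi14, TwdlF and TwdlW), against 0.212%. Between pairs 1 and 2, no gene passed in limma (0% of rows), and 17 of the 28 had an unadjusted p under 0.05, against 9.23% of all rows. ect, a gene named for its expression in the ectoderm, had 4.23 and 2.78 in pair 1, -0.86 and -0.40 in pair 2 and -4.21 and -3.52 in pair 3. Its 3 pairs did not overlap, and pair 1 exceeded pair 3 by 7.37 ± 0.58 (SE, limma adjusted p = 0.0328). TwdlW had 0.22 and 0.14, 2.56 and 2.04, and -0.62 and -1.17 in pairs 1, 2 and 3. Its pair 2 stood above both others, exceeding pair 3 by 3.19 ± 0.26 (SE, limma adjusted p = 0.045).

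**Figure D2:**
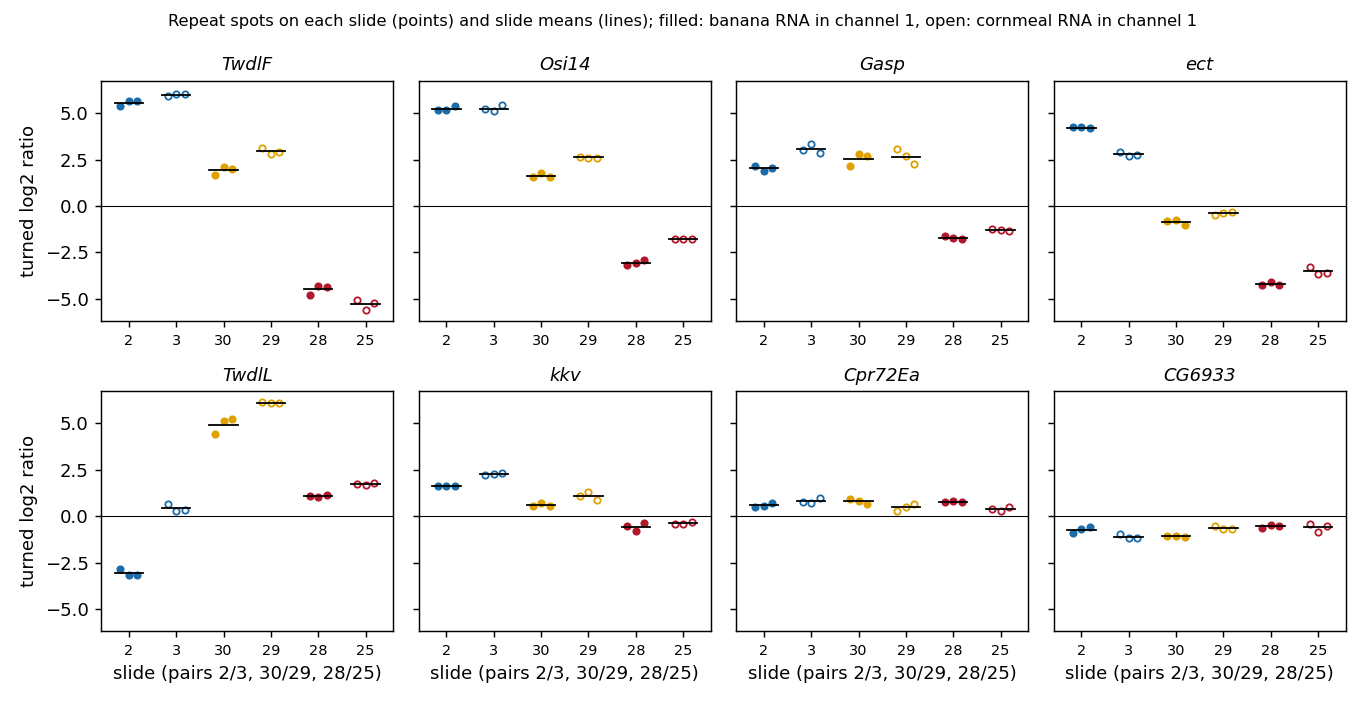
Turned log2 ratio (vertical axis) of every repeat spot of 8 genes on the 6 slides (horizontal axis, slides 2 and 3 of pair 1, 30 and 29 of pair 2, 28 and 25 of pair 3); points are spots, filled where banana RNA was in channel 1 and open where cornmeal RNA was, and lines are slide means. Spots of a slide lie close together, so that the steps between pairs of TwdlF, Osi14, Gasp and ect are far larger than the spread of spots, whereas Cpr72Ea and CG6933 hold 1 level.

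Genes were also counted by size alone, without the fitted spread. Both slides lay above 1, a 2-fold difference, for 8 of the 28 genes in pair 1 (28.6%, against 1.67% of all rows), for 10 in pair 2 (35.7%, against 1.61%) and for 2 in pair 3 (7.14%, against 0.551%). Both lay below -1 for no gene in pair 1 (0.72% of all rows) or pair 2 (0.847%) and for 4 in pair 3 (14.3%, against 1.29%). The 4 were TwdlF, Osi14, ect and Gasp, and the 2 above 1 in pair 3 were TwdlL and Vajk3. The ratios of pairs 1 and 3 had opposite signs for 21 of the 28 genes, or 75%, against 53.2% of all rows. Those of pairs 1 and 2 did for 14 genes, against 2352 of 4722 rows. Those of pairs 2 and 3 did for 11 genes, against 1666 rows. In these last comparisons the share was close to that of all rows. The labels do not say whether the pairs shared an RNA.

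**Figure D3:**
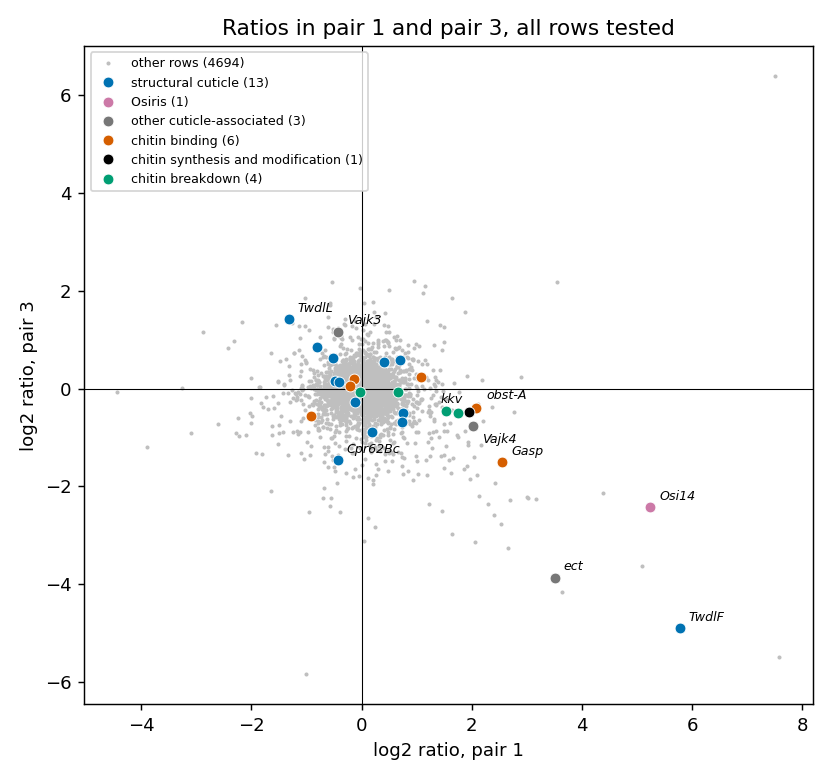
Log2 ratio in pair 1 (horizontal axis) against that in pair 3 (vertical axis) for all 4722 rows tested; grey points are other rows and coloured points the 28 cuticle and chitin genes by class. TwdlF, Osi14, ect and Gasp lie at the lower right, positive in pair 1 and negative in pair 3, and TwdlL and Vajk3 lie at the upper left.

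Among structural cuticle genes, all 4 Tweedle genes and 4 of the 9 tested Cpr genes had an unadjusted p under 0.05 for the pair difference, against 9.3% of all rows, and TwdlF alone of these 13 passed after adjustment. The median range over the pairs was 5.02 for the Tweedle genes and 1.27 for the Cpr genes, a difference that was not tested. Of the Tweedle genes, 3 were highest in pair 2. TwdlT had 0.53 and 0.98 in pair 1, 1.84 and 1.92 in pair 2 and -0.57 and -0.43 in pair 3 (limma F test, adjusted p = 0.0951). TwdlL had 4.94 and 6.11 in pair 2 and 1.09 and 1.75 in pair 3, but its slides in pair 1 disagreed, at -3.08 and 0.43, and its adjusted p was 0.0959 (limma F test).

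Among the Cpr genes, Cpr49Ae and Cpr57A, with unadjusted p of 0.00615 and 0.0101 in the limma fit, had the opposite sign to TwdlF in pairs 1 and 3 and the same sign in pair 2. Cpr49Ae had -0.40 and -1.22 in pair 1, 0.65 and 0.55 in pair 2 and 0.90 and 0.81 in pair 3. Cpr57A had -0.84 and -0.18, 0.72 and 0.81, and 0.45 and 0.80. Both were negative in pair 1 and positive in the other pairs on every slide. Cpr49Ac, which has 3 protein-coding genes between it and Cpr49Ae on chromosome arm 2R in the Release 6 gene table, had the opposite sign in each pair, with pair ratios of 0.73, -1.38 and -0.69 and spots that differed by a standard deviation of up to 1.22 on a slide. Cpr67B had pair ratios of 0.40, -0.92 and 0.55. The adjusted p of these 4 genes in the F test lay between 0.179 and 0.36 (limma).

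The other 5 tested Cpr genes had an unadjusted p over 0.05 for the pair difference. Cpr11B (-0.49, 0.07 and 0.15 in pairs 1, 2 and 3) and Cpr50Cb (-0.41, 0.07 and 0.14) were both lowest in pair 1. Cpr62Bc had -0.44, 0.58 and -1.47, with spots that differed by a standard deviation of up to 2.83 on a slide. Cpr72Ea and Cpr72Ec held 1 sign in all pairs and are described with the diet comparison. Cpr73D was not tested, because it had 5 of 18 spot values.

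Of the 6 chitin-binding genes, 4 had an unadjusted p under 0.05 for the pair difference, against 9.3% of all rows. Gasp, obst-A and Peritrophin-A were lowest in pair 3. While obst-A and Peritrophin-A were highest in pair 2, Gasp hardly differed between pairs 1 and 2 (-0.05 ± 0.32, SE). The Obstructor gene obst-A, which organises the chitin matrix of the larval cuticle, had 1.51 and 2.63 in pair 1, 3.85 and 3.24 in pair 2 and -0.55 and -0.25 in pair 3 (limma F test, adjusted p = 0.107). Its neighbour on the X chromosome, Peritrophin-A, with no protein-coding gene between them in the gene table, had 0.58 and 1.57, 1.58 and 2.47, and -0.36 and 0.83 (limma F test, adjusted p = 0.143). In both genes pair 2 was highest, although in Peritrophin-A its lower slide nearly met the higher slide of pair 1. obst-B was positive on both slides of pair 2, at 1.05 and 0.81, with pair means of -0.14 in pair 1 and 0.20 in pair 3. Muc68D, a mucin gene, had pair ratios of -0.20, 0.20 and 0.05. The class median was 0.47, 1.48 and -0.17 in pairs 1, 2 and 3, where the medians of all rows were -0.01, 0.01 and -0.01.

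The chitin synthase gene kkv followed the order of TwdlF and Osi14 at a smaller size. It had 1.63 and 2.29 in pair 1, 0.60 and 1.08 in pair 2 and -0.58 and -0.38 in pair 3, with no overlap between pairs. Pair 1 exceeded pair 3 by 2.43 ± 0.25 (SE, limma adjusted p = 0.0629), and the adjusted p of the F test was 0.0951 (limma). The genes ect, Osi14 and TwdlF were likewise highest in pair 1 and lowest in pair 3. Cpr72Ea had this order by small steps only, with pair ratios of 0.70, 0.64 and 0.58 (limma F test, unadjusted p = 0.912).

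Of the 4 chitin breakdown genes, Cht7 and Cht5 had an unadjusted p under 0.05 for the pair difference, against 9.3% of all rows. Cht2 and Cht10 did not. The chitinase gene Cht7 had 1.03 and 2.02 in pair 1, 1.31 and 1.83 in pair 2 and -0.94 and 0.03 in pair 3 (limma F test, adjusted p = 0.104). Like Gasp it was lowest in pair 3, with pairs 1 and 2 nearly equal. Cht5, a chitinase of moulting fluid, had 2.04 and 1.44 in pair 1 but -1.67 and -0.93 in pair 2, and 0.04 and -1.04 in pair 3 (limma F test, adjusted p = 0.2). In pair 2, Gasp, obst-A and Cht7 had ratios over 1 on both slides, and Cht5 had negative ratios on both. Pairs 2 and 3 of Cht5 overlapped, and pair 2 minus pair 3 was -0.80 ± 0.49 (SE, limma unadjusted p = 0.165). Cht10, the other moulting chitinase gene, lay between -0.22 and 0.11 on all 6 slides. Cht2 could not be placed, since its slides were -1.01 and 2.35 in pair 1 and its spots differed by a standard deviation of up to 2.39 on a slide. The class median was 1.10, -0.29 and -0.26 in pairs 1, 2 and 3, against -0.11, 0.60 and 0.14 for the 13 structural cuticle genes. Those 13 genes pool the Cpr genes, with medians of -0.41, 0.07 and 0.15, and the Tweedle genes, with 0.47, 2.37 and -0.70. With only the genes that had all 18 spot values, which leaves out Cht2, the chitinase median was 1.53, -0.11 and -0.45. That of structural cuticle was then 0.03, 0.62 and 0.15. In pair 2 the chitinase genes were split, with Cht7 at 1.57 and Cht5 at -1.30. No p is given for a class, and whether the classes differ was not tested.

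**Figure D4:**
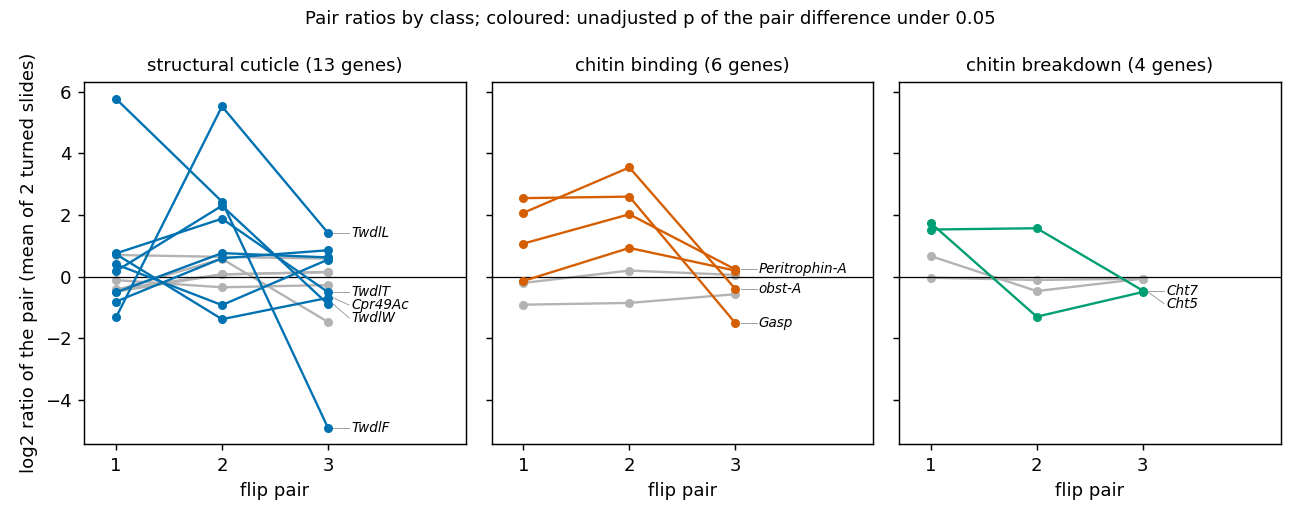
Log2 ratio of each flip pair (mean of 2 turned slides, vertical axis) for the genes of 3 classes; a line joins the values of 1 gene in the 3 pairs, which are replicates without an order, and grey lines are genes with an unadjusted p of 0.05 or more for the pair difference. TwdlF is highest in pair 1 and TwdlL in pair 2, obst-A and Peritrophin-A are highest in pair 2, and Cht5 and Cht7 separate in pair 2. Gasp is nearly equal in pairs 1 and 2.

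The remaining cuticle-associated genes were Vajk4 and Vajk3 of the Vajk family. Vajk4 had 0.53 and 3.51 in pair 1, 3.90 and 4.49 in pair 2 and -1.54 and -0.02 in pair 3 (limma F test, adjusted p = 0.11). It was highest in pair 2 and lowest in pair 3, like obst-A. Vajk3 had -0.64 and -0.20, 0.97 and 0.65, and 1.27 and 1.06, negative in pair 1 and positive in pairs 2 and 3 like Cpr49Ae (limma F test, adjusted p = 0.248).

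The second comparison asked which of these genes had a banana-cornmeal ratio of 1 direction in all 3 flip pairs. None passed the adjusted threshold in limma (smallest adjusted p = 0.407), and 0% of all rows did. At an unadjusted p under 0.05 there were 3 of the 28 genes, or 10.7%, against 8.13% of all rows. A positive ratio in all 3 pairs was found for 2 genes (7.14%, against 14.6% of all rows) and a negative one for 3 (10.7%, against 16.3%). These shares lie near or below those of all rows.

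Cpr72Ea, a structural cuticle gene, had 0.59 and 0.82 in pair 1, 0.81 and 0.48 in pair 2 and 0.78 and 0.39 in pair 3. Every slide and all 18 spots were positive, and the mean was 0.64 ± 0.06 (SD, n = 3 pairs), a 1.56-fold difference (limma adjusted p = 0.407). The predicted chitin-binding protein gene CG6933 had -0.72 and -1.10, -1.07 and -0.63, and -0.55 and -0.59. All 18 of its spots were negative, and the mean was -0.78 ± 0.18 (SD, n = 3 pairs), a 1.71-fold difference (limma adjusted p = 0.407). With the 6 slides as units and the flip pair as a replicate block, in which the slides of a pair had an estimated correlation of -0.0888, these 2 genes passed (limma adjusted p = 0.0473 for Cpr72Ea and 0.043 for CG6933) among 21 rows. With the slides as units and no block neither passed. A negative correlation makes the error of a mean smaller than that of independent slides. Both fits count hybridisations of the same RNA as separate units.

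Peritrophin-A was positive in all 3 pairs, with a mean of 1.11 ± 0.90 (SD, n = 3 pairs), but 1 of its slides in pair 3 was negative. Cpr72Ec, which has 1 protein-coding gene between it and Cpr72Ea on chromosome arm 3L, averaged -0.24 ± 0.12, and Cht10 averaged -0.07 ± 0.04 (SD, n = 3 pairs each). For the diet ratio, 4 of 5 muscle marker genes and 3 of 5 gut marker genes had an unadjusted p under 0.05 in limma. The share of all rows was 8.13%. In all 3 pairs, 4 of the muscle genes were positive, and of the gut genes 2 were positive and 3 negative. Over all rows 14.6% were positive and 16.3% negative in all 3 pairs. The part of these markers in the ratios of Cpr72Ea and CG6933 was not tested. Genes with large pair ratios had means with wide errors. TwdlF averaged 1.10 ± 5.46, Osi14 1.65 ± 3.86, ect -0.33 ± 3.69 and kkv 0.77 ± 1.22 (SD, n = 3 pairs each). Gasp averaged 1.21 ± 2.35, Vajk4 1.81 ± 2.49, Vajk3 0.52 ± 0.83 and Cht7 0.88 ± 1.16 (SD, n = 3 pairs each).

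The channel effect, which keeps its sign when the dyes are flipped, was tested as well. In limma no gene passed after adjustment, and 0% of all rows did. At an unadjusted p under 0.05 there were 5 of the 28 genes, or 17.9%, against 9% of all rows. They were TwdlL (-0.89), Vajk4 (-0.85), Cpr49Ac (-0.67), Peritrophin-A (-0.51) and Cht7 (-0.41), where the value is the mean of slides that were not turned. The component was -0.11 for TwdlF and -0.38 for Osi14.

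Other genes of cuticle formation and moulting, taken from lists of symbols, were read from the same fit. Of 10 ecdysone and moulting genes, 4 had an unadjusted p under 0.05 for the pair difference, against 9.3% of all rows. The list medians were 0.42, -0.04 and -0.28 in pairs 1, 2 and 3. ImpE2, an ecdysone-inducible gene of imaginal discs, passed the adjusted threshold with pair ratios of 3.63, 4.20 and -4.17 (limma F test, adjusted p = 0.0398). The nuclear receptor gene ftz-f1, which acts between ecdysone pulses, had 0.99, 2.34 and -0.70. ImpL1, another ecdysone-inducible gene, had 2.43, -0.58 and -1.93, and usp, the partner of the ecdysone receptor, had 2.12, 0.23 and -0.32. ImpE2 and ftz-f1 thus had the signs of Gasp in the 3 pairs. The pair means of ImpL1 had those of ect, but its slides in pair 2 were -1.18 and 0.02. The rest of the list had an unadjusted p over 0.05. Of these, Kr-h1 had -2.01, 0.10 and 0.21, but its slides disagreed in sign in pair 2 (-0.15 and 0.35) and in pair 3 (1.63 and -1.21). The genes grh and Hr39 were negative in all pairs, and br, Hr3 and ImpL2 lay between -0.24 and 0.45.

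Of 5 apical matrix genes, 2 had an unadjusted p under 0.05, against 9.3% of all rows. These were neo (1.49, -1.69 and -0.87) and mey (1.63, -2.61 and -1.73), with the signs of Cht5. Both encode zona pellucida domain proteins of the apical surface. The others had other signs, with dyl at 0.85, 0.73 and -1.68, dpy at 0.75, -0.35 and 0.35, and pio at -0.27, 0.32 and -0.01. Of 9 chitin precursor and assembly genes 1 had an unadjusted p under 0.05, near the share of all rows. It was mmy (-0.06, 0.78 and 0.29), which encodes the enzyme that makes the activated sugar used by chitin synthase. Idgf6, of the chitinase-like growth factors, had the next smallest p, with -0.19, 0.45 and 0.09. Of 5 sclerotisation and pigmentation genes 2 did: Ddc, for the enzyme that makes dopamine (0.41, 2.76 and 0.88), and yellow-b (0.21, 1.85 and 0.49). Of these genes neo, mey, mmy, Ddc and yellow-b did not pass the adjusted threshold (limma F test, adjusted p of 0.193, 0.235, 0.532, 0.425 and 0.502).

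Markers of tissues that such RNA can hold were given the same test of the pair difference. In it, 9.3% of all rows had an unadjusted p under 0.05. In the list for trachea and epidermis, 3 of the 5 measured genes are members (Gasp, ect and kkv). Its medians were 1.96, 0.73 and -1.51 in pairs 1, 2 and 3, and those of pairs 1 and 3 are the values of kkv and Gasp. Of the non-members, grh had -0.20, -0.46 and -0.24. The slides of dyl disagreed in sign in pair 1 (2.42 and -0.72) and in pair 2 (-0.10 and 1.56). Both grh and dyl had an unadjusted p over 0.05 (limma F test). An unadjusted p under 0.05 was found for 1 of 5 muscle genes (list medians 0.53, 0.31 and 0.56), 0 of 3 neural genes (-0.44, -0.35 and -0.16), 1 of 5 gut genes (-0.47, -0.06 and -0.39) and 1 of 5 haemocyte genes (0.11, 0.22 and -0.31). The haemocyte gene was srp, a GATA factor gene, with 1.91, 0.33 and -1.58, the order of TwdlF and kkv. It was also found for the 1 fat body gene measured, apolpp, at 0.05, -1.69 and -1.11. No gene of the male (2) or female germ line (2) lists had one, and no salivary glue gene was measured. Only ratios are given, so summed marker levels are unknown. The part of tissue or stage composition in the pair differences was not tested.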

How the data were processed

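The deposited table held 18 columns over 5620 probes, 1 column for each spot set of each slide. The values deposited by the authors were taken as log2 ratios, an assumption that the files do not settle. They ranged from -16.02 to 13.21, and of 90442 values 5 lay past 11.09, the natural logarithm of a 16-bit signal range, and 1 lay just past 16, its log2. Tests and signs do not depend on the base, while fold differences and the size limit of 1 do. Scanning, background correction, filtering and normalisation are not given in the sources used here, and dim spots could not be filtered. Columns held 4860 to 5149 values. Column medians lay between -0.69 and 0.35, and the first spot set had the lowest median on 6 of 6 slides, so each column was centred on its own median.

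Genes were named from the platform annotation (1 gene for 4955 probes, several for 85, none for 580), and 4876 identifiers were found in the Release 6 gene table. Spot sets were averaged, probes with values on all 6 slides were kept, and probes of 1 gene were averaged, which gave 4722 rows (4143 named genes). Slides with cornmeal RNA in channel 1 had their sign turned. Because repeat spots and dye flips repeat the measurement of the same RNA, the diet ratio had the flip pair (n = 3) as its unit.

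All tests used limma 3.58.1 in R 4.3.3, two-sided, with Benjamini-Hochberg adjustment over all rows and a threshold of 0.05: pair ratios against 0, pair means of slides not turned against 0 (channel effect), and an F test with single contrasts for pair differences over 6 slides, with orientation as a term and 2 residual degrees of freedom. In the F test the spread is that between hybridisations of the same RNA, not a biological one. The pairing comes from the labels, which name each slide's partner. The procedure was tested on simulated spots. Plots were made in Python 3.11.15 (matplotlib 3.10.9).

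Members and lists were chosen with earlier results of these data known. Genes were named by rule: past the adjusted threshold in any fit, 1 sign in all pairs, the 15 smallest p for the pair difference, the 2 smallest p for the diet ratio in each class, and the single symbols of the selection. From the lists, the 2 smallest p were named. ImpL1, usp, srp and apolpp were named after their values were seen. The other measured genes of the ecdysone and apical matrix lists were also named outside the rule. The other members are given so that each is accounted for.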

Additional observations from a re-analysis of the deposited data

Results flagged for a closer look

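The banana-cornmeal ratio differed between flip pairs by limma contrasts for 5 of the genes. Pair 1 exceeded pair 3 by 10.68 for TwdlF, by 7.67 for Osi14, by 7.37 for ect and by 4.05 for Gasp on the log2 scale. Pair 2 exceeded pair 3 by 7.34 for TwdlF, by 4.55 for Osi14, by 4.10 for Gasp and by 3.19 for TwdlW. Samples stand in groups of 3 pairs, which are too few to look for single outlying values.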

How the results depend on the processing

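Leaving out 1 flip pair left 0 genes past the adjusted threshold for the diet ratio and the channel effect, and 4 to 11 genes with an unadjusted p under 0.05 for the diet ratio. For the pair difference it gave 0 to 8 genes. The mean of Osi14 ranged from -0.15 (without pair 1, of the opposite sign) to 3.68, and that of ect from -2.25 to 1.44 (without pair 3, of the opposite sign). Restricting the table to probes with all 18 values gave 15 genes for the pair difference and 10 between pairs 1 and 3, with fewer rows tested and a tighter shared spread (5.95 prior degrees of freedom, against 2.77). The median of the spot sets gave 5 genes for the pair difference. With the flip pair as a replicate block, 2 genes passed for the diet ratio and 5 had an unadjusted p under 0.05. Among all rows the pair difference was found for 22 rows with the median of the spot sets, 84 without pair 2 and 7 with each probe as a row.

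With no slide turned, as would apply to values turned before deposit, no gene would pass for the pair difference or between pairs 1 and 3 (0 in each), 1 gene would have an unadjusted p under 0.05 for the pair difference and 5 for the diet ratio. The mean ratio would then have the opposite sign for Cht10 (0.0709), Cht7 (-0.41), Cpr72Ec (0.16), Gasp (-0.27), Osi14 (-0.38), Peritrophin-A (-0.51), Vajk4 (-0.85), ect (0.0493) and kkv (-0.22). The difference of pair 1 from pair 3 would be reversed for Cht5 (-0.24), Cht7 (-0.0123), Cpr49Ac (-0.21), Cpr49Ae (0.37), Gasp (-0.31), TwdlF (-0.62), TwdlT (-0.16), TwdlW (-0.23), Vajk4 (-0.73), kkv (-0.23) and obst-A (-0.41). CG6933 and Cpr72Ea would average -0.0045 and 0.0832, and pair 1 would exceed pair 3 by 0.63 for Osi14 and 1.07 for ect. Before turning, the paired slides had opposite signs for 23, 24 and 20 of the 28 genes in pairs 1, 2 and 3, over which they correlated at 0.788, 0.921 and 0.849 after turning. TwdlF in pair 1 reads 5.56 and 5.99 after turning, with opposite signs before it. The class medians would move to 0.0313 for chitin binding and 0.0499 for structural cuticle in pair 2 and to -0.18 for chitin breakdown in pair 1. Centring by slide or not at all, robust spread and single probes kept each count of these genes within 1.5 times. The signal over background is unknown.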

Other observations

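Of the 30 genes, 2 could not enter any comparison for want of spots. Cpr73D had 5 spot values, with -0.56 and -0.29 on slide 30 and 2.56 on slide 29 of pair 2, and -1.78 and -4.59 on slide 25 of pair 3. The spots of Osi6 are given with Osi14.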
